A study of Homo sapiens with 27 samples.

Results

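The 31 genes described here are established transcriptional targets of p53, chosen by symbol as a list and found in the table of read counts by their Ensembl identifiers. All 31 were found among the 60604 gene entries used. Their RNA was measured in EA.hy926, a human endothelial line that is a hybrid of umbilical vein endothelium and A549 lung carcinoma cells, labelled as genotype wt. The cells were grown with, on or in products of ASC52telo, an immortalised line of mesenchymal stromal cells (MSCs) from adipose tissue, and the design sets senescent MSCs against young ones.

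There were 7 groups. In senescent co-culture and young co-culture, endothelial cells and MSCs were grown together for 48 h in equal numbers. In senescent ECM and young ECM, endothelial cells were seeded for 48 h on the extracellular matrix that remained after the MSCs had been lysed and washed away. In senescent CM and young CM, medium conditioned by MSCs was mixed with an equal volume of endothelial medium for 48 h. Control cells had no exposure. Senescent MSCs were those treated for 18 h with the DNA-crosslinking drug mitomycin C, at 1.5 µg/mL, 10 days before use, and young MSCs had no drug. The endothelial cells themselves received no mitomycin C. Each line is a single cell line, and nothing in the labels states that replicates are separate cultures, so p-values cover only the spread among these libraries and part of it may be technical. No step to part the 2 cell types after co-culture is described, and the extraction protocol speaks of MSC RNA although every sample is labelled as endothelial.

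The p53 protein is a transcription factor that is kept scarce by the ubiquitin ligase MDM2, itself a p53 target, and is stabilised by DNA damage and other stress. Its targets halt the cell cycle, promote or restrain apoptosis, repair DNA and adjust metabolism, and some of them feed back on p53. In senescent cells p53 and its target CDKN1A help to hold the cell cycle arrest, and factors secreted by senescent cells are known to provoke stress responses in their neighbours.

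The p53 tetramer binds a response element made of a pair of 10-base blocks, each with a C and a G around a core of A and T, and the sequences below show how far the core promoters of the members carry it. Promoter windows of RefSeq (GRCh38.p14, 250 bases before to 50 after a start) matched 24 of the 31 members by symbol. Each window was scanned for the palindromic p53 consensus, which reads alike on both strands, with 0 to 13 bases between the blocks and the C and G of each core required. At up to 2 mismatches it was present in 5 members, or 20.8% of those with a window, against 3.62% of the 27305 gene symbols with a window. At up to 3 mismatches the shares were 45.8% of members and 15.3% of all symbols. The 8 elements below are those with at most 2 mismatches and those with 3 in a member that passed a test further on, and capitals mark the C-to-G core of each block.
DDB2, 0 mismatches, chr11:47214979-47214999, plus strand: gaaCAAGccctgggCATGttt
MDM2, 2 mismatches, chr12:68808923-68808942, plus strand: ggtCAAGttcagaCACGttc
AEN, 2 mismatches, chr15:88621306-88621325, plus strand: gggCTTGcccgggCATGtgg
FAS, 2 mismatches, chr10:88991309-88991328, plus strand: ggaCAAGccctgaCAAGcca
FDXR, 2 mismatches, chr17:74872996-74873025, minus strand: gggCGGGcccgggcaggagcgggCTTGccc
GDF15, 3 mismatches, chr19:18386186-18386205, plus strand: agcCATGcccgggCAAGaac
SESN1, 3 mismatches, chr6:109009018-109009037, minus strand: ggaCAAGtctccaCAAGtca
PLK2, 3 mismatches, chr5:58460214-58460242, minus strand: aagCGAGacccgggtggcgggaCAAGact
These matches are descriptions of letters in a short window. They say nothing of binding in these cells, and elements farther away were not searched.

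The 27 libraries held 66320519 to 111512357 counts each. There were 4 libraries in 6 groups and 3, numbered 2 to 4, in senescent co-culture. Replicate 1 stood apart in every group that had one. In control, ECM and CM, the 12 stromal markers summed to 5644 to 10166 CPM (the share of a library's counts, scaled by TMM) in replicate 1 and to 17.6 to 35.3 CPM in replicates 2 to 4. In young co-culture, replicate 1 had a TMM scaling factor of 0.459 and a stromal sum of 96.6 CPM. Results therefore come from replicates 2 to 4, 21 libraries in all, and replicate 1 is given apart. Every member passed the filter on low counts in every fit, and the lowest count of a member in any library was 53. Levels below are in CPM with the SD over 3 libraries, and changes are log2 fold changes with their standard error from edgeR's quasi-likelihood test, whose p-values were adjusted over all genes tested and called under 0.05.

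**Figure D1:**
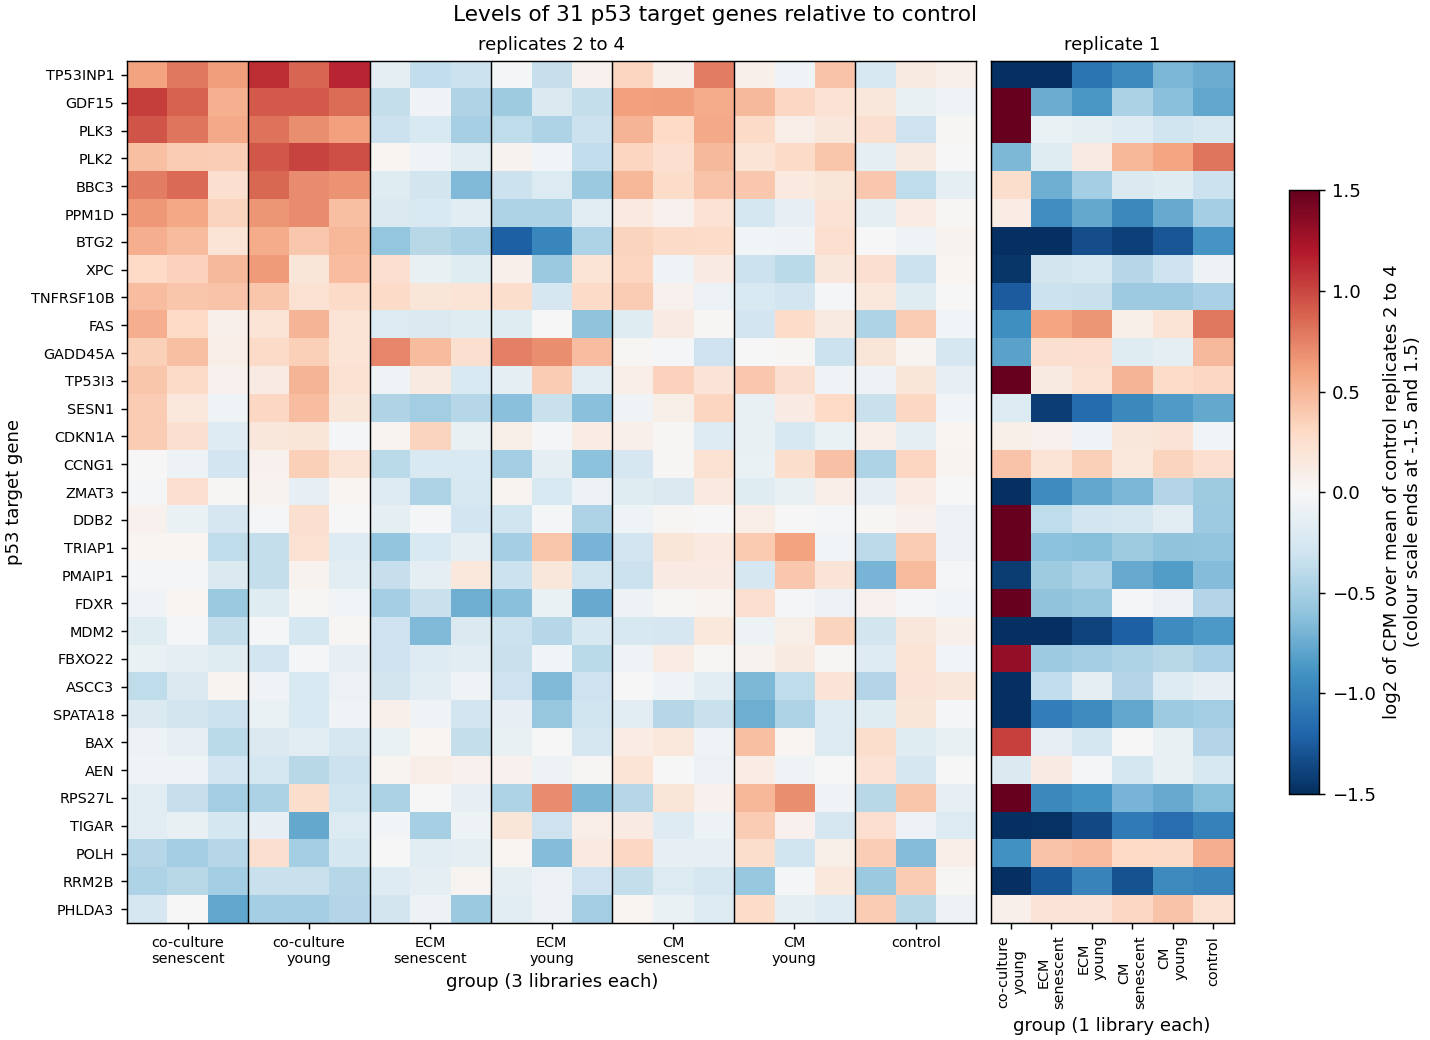
Heat map of the 31 members (rows), in colour as the log2 ratio of each library's CPM to the mean of control replicates 2 to 4. The left panel holds the 21 libraries of replicates 2 to 4 and the right panel the 6 of replicate 1 (columns, by group). BTG2, GDF15, PLK3 and TP53INP1 have their highest group means in co-culture and their lowest on ECM, while CDKN1A differs little between groups.

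Most members were plainly expressed in control cells. Per kilobase of exon, the most abundant were BAX, a pore-forming death effector of mitochondria, at 97.8 ± 16.7 CPM per kb, and CDKN1A, which encodes the cyclin-dependent kinase inhibitor p21, at 86.9 ± 7.15 CPM per kb (SD, n = 3). TRIAP1, a small inhibitor of apoptosis, followed at 56.6 ± 15.4 CPM per kb and overlapped with GDF15, a secreted stress cytokine of the TGF-beta family, at 44.5 ± 4.80 CPM per kb. The least abundant were TIGAR, a regulator of glycolysis, at 3.49 ± 0.587 CPM per kb, TP53INP1, a stress protein that promotes p53 activity and autophagy, at 2.50 ± 0.330, and SPATA18, which acts in mitochondrial quality control, at 2.37 ± 0.302 (SD, n = 3). The ranges of TP53INP1 and SPATA18 over the control libraries overlapped. The length used is the union of all annotated exons of a gene, and the order depends on it. RPS27L, with 9127 such bases, ranked 8 with 227, 405 and 279 CPM in control. BAX, with 2587 bases, had 302, 223 and 233 CPM there.

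The members differed in how far they moved between groups. The ratio of a member's highest group mean to its lowest had a median of 1.48 and reached 1.5 in 14 of 31 members and 2 in 6. Those 6 were BTG2 at 2.53, TP53INP1 at 2.49, GDF15 at 2.39, PLK3 at 2.24, BBC3 at 2.15 and PLK2 at 2.11. CDKN1A and PMAIP1, the canonical arrest gene and the death gene NOXA, were among the flattest, with ratios of 1.24 and 1.22. Young co-culture and young CM each held the highest mean of 10 members, and young ECM and senescent ECM the lowest mean of 11 and 7. Of the 31 members, 9 (29.0%) were called in at least 1 of the 14 comparisons made and 22 in none, beside 14.3% of all genes tested called in at least 1, a difference that was not tested.

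The 22 members called nowhere in the main edgeR fits span every role. In arrest and feedback they were CDKN1A, MDM2, CCNG1, a cyclin that recruits a phosphatase to MDM2, and ZMAT3, an RNA-binding regulator of splicing. In cell death they were BAX, PMAIP1, the death receptor genes FAS and TNFRSF10B, TP53I3, a quinone oxidoreductase, AEN, a nuclease, PHLDA3, an inhibitor of the kinase AKT, and TRIAP1. In DNA repair and nucleotide supply they were XPC, DDB2, POLH, RRM2B and ASCC3, and in metabolism and mitochondria FDXR, a ferredoxin reductase, TIGAR and SPATA18. RPS27L, a ribosomal protein paralogue that binds MDM2, and FBXO22, a ubiquitin ligase subunit, complete them. Their widest spread was in RPS27L, with group means of 239.9 CPM in senescent co-culture to 405 CPM in young CM, a ratio of 1.69 with a median coefficient of variation of 25.5% within groups. Among those with the next widest, TRIAP1 ran from 65.9 CPM on senescent ECM to 103 CPM in young CM, and CCNG1 from 78.8 CPM on young ECM to 121 CPM in young CM. TNFRSF10B and XPC were highest in co-culture, at 292 CPM with senescent MSCs and 98.6 CPM with young MSCs, and lowest in young CM, at 192 and 65.1 CPM. RRM2B, SPATA18 and ASCC3 were highest in control, at 151, 11.7 and 157 CPM. Some of the 22 passed in alternative runs. With the replicate number as a block, CCNG1 and FDXR were called on young ECM over young CM. TNFRSF10B was called in senescent co-culture over control with the block, under DESeq2 and with library totals. Leaving out single libraries also called RPS27L, TRIAP1, RRM2B, XPC or POLH in some comparisons.

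**Figure D2:**
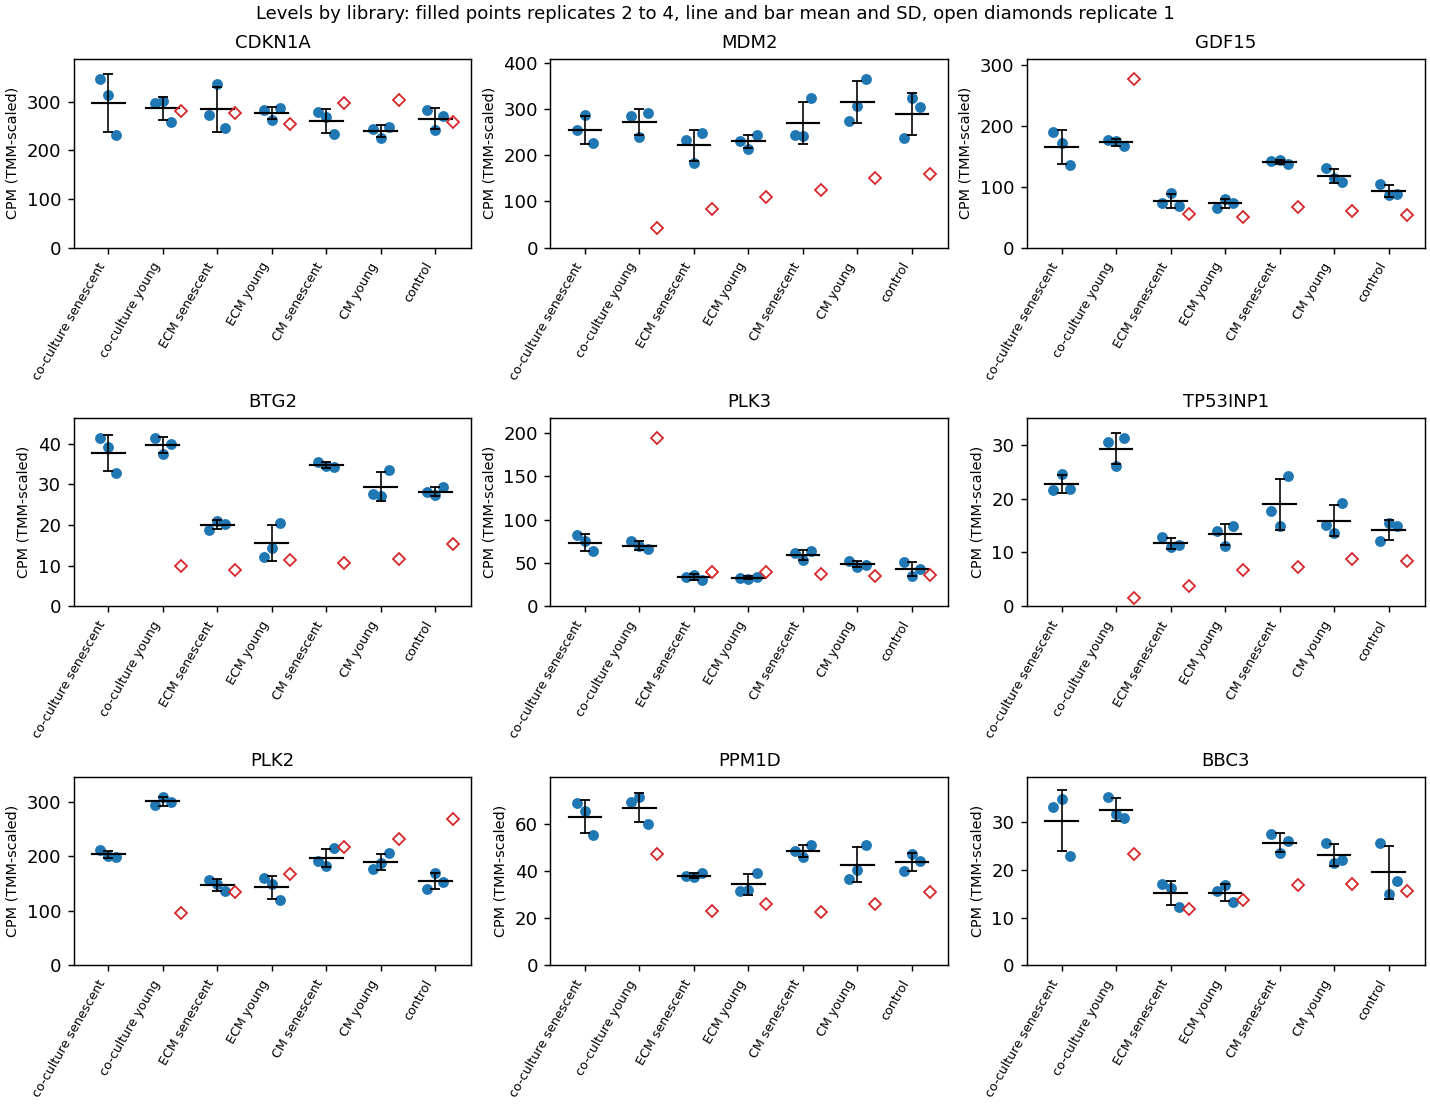
Levels in CPM (vertical axes, from 0) of 9 members by group (horizontal axis), with filled points for the libraries of replicates 2 to 4, lines for their mean ± SD and open diamonds for replicate 1. The highest group mean of CDKN1A is 1.24 times its lowest and that of MDM2 1.42 times, whereas GDF15 in replicates 2 to 4 lies at 135 to 190.1 CPM in co-culture and at 64.3 to 89.8 CPM on ECM.

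The first question was whether senescence of the MSCs changed p53 targets in the cells exposed to them. No member was called higher or lower with senescent than with young MSCs in any of the 3 ways of exposure by edgeR. Among all genes tested, 0% were called on ECM, 0.0167% in CM and 0.395% in co-culture. At an unadjusted p under 0.05 there was 1 member on ECM (BTG2), 0 in CM and 2 in co-culture (PLK2 and TP53INP1), and DESeq2 called 0, 0 and 1 (PLK2, lower in senescent co-culture).

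CDKN1A had 346, 314 and 231 CPM in senescent co-culture, against 298, 301 and 259 CPM in young co-culture. On senescent ECM it had 273, 335 and 245 CPM, against 282, 262 and 286 CPM on young ECM. In senescent CM it had 279, 269 and 232 CPM, against 245, 225 and 247 CPM in young CM. The libraries of each pair overlapped, and the log2 changes were 0.06 ± 0.16, 0.04 ± 0.14 and 0.11 ± 0.14, in that order of exposure. The widest of their 95% intervals, in co-culture, ran from -0.29 to 0.41.

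MDM2, the ligase that degrades p53, gave a like picture. It had 254, 286 and 226 CPM in senescent co-culture, against 285, 239.9 and 292 CPM in young co-culture. It had 232, 183 and 248 CPM on senescent ECM, against 231, 214 and 244 CPM on young ECM. In senescent CM it had 244, 242 and 323 CPM, against 273, 306 and 364 CPM in young CM. Again the libraries overlapped, with log2 changes of -0.09 ± 0.15, -0.05 ± 0.17 and -0.24 ± 0.17.

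BTG2 encodes an antiproliferative partner of the deadenylase that shortens mRNA tails. It had 18.8, 21.1 and 20.3 CPM on senescent ECM, against 12.1, 14.3 and 20.5 CPM on young ECM. The highest young library lay inside the senescent range, and the log2 change was 0.36 with a 95% interval of 0.00 to 0.72. GDF15 had 72.6, 89.8 and 68.1 CPM on senescent ECM, against 64.3, 80.1 and 72.6 CPM on young ECM, and the groups overlapped. In CM, GDF15 had 142, 143 and 137 CPM with senescent MSCs, against 130.1, 115 and 108 CPM with young MSCs. All 3 senescent CM libraries lay above the young ones, but the change was not called. PLK2, a polo-like kinase that controls centriole duplication, had 211, 200.2 and 199 CPM in senescent co-culture, against 294, 309.9 and 299.8 CPM in young co-culture. These groups did not overlap, and the log2 change of -0.56 ± 0.12 had an adjusted p of 0.0912 in edgeR and 0.000450 in DESeq2.

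Over all 31 members the median log2 change with senescent MSCs was 0.04 on ECM, -0.01 in CM and -0.06 in co-culture. The medians of all genes tested were 0.00, -0.03 and 0.00. The 95% interval of the change stayed within 2-fold in either direction for 31 members on ECM, 30 in CM and 31 in co-culture, the exception being RPS27L in CM. Within 1.5-fold the numbers were 23, 19 and 25. When the effect of senescence was compared between ways of exposure, 0 members differed between ECM and CM, between co-culture and ECM, or between co-culture and CM by edgeR. Of all genes, 0%, 0.0487% and 0.103% were called in these 3 tests, 0, 1 and 2 members had an unadjusted p under 0.05, and DESeq2 called 0 members in each.

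**Figure D3:**
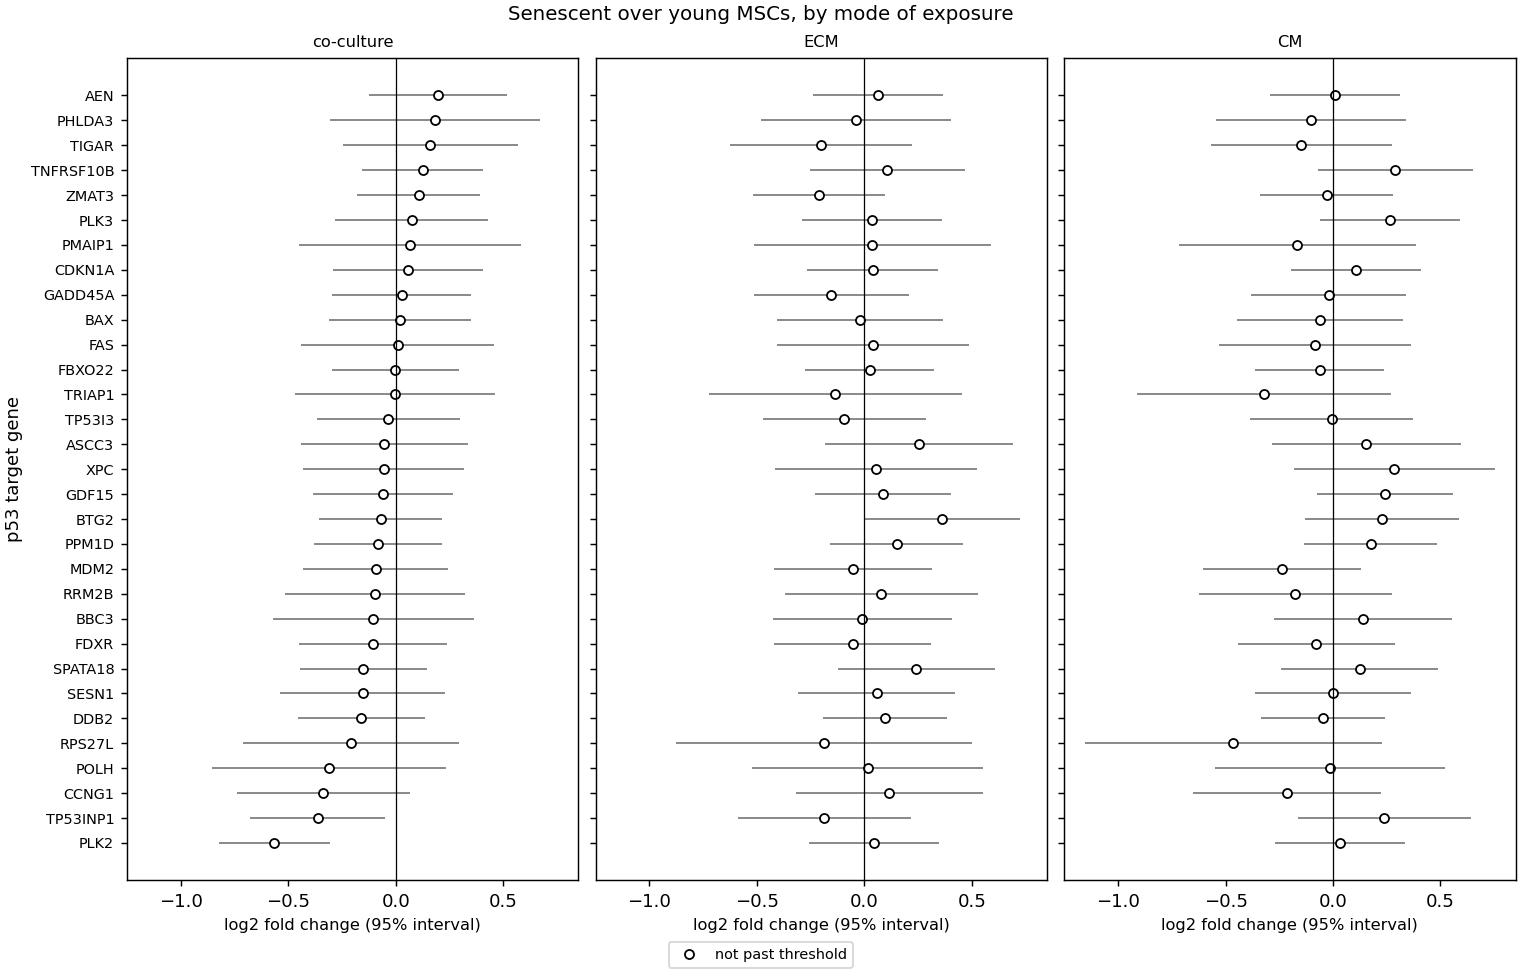
Log2 fold change of each member (rows) with senescent over young MSCs, with 95% intervals, in a panel for each way of exposure. No member is called, and all intervals but that of RPS27L in CM stay between -1 and 1.

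The second question was what co-culture itself did. In young co-culture, 7 members were higher than in control and 0 were lower. That is 22.6% of the members called higher, beside 6.71% of all genes tested (9.68% in either direction), a difference that was not tested. In senescent co-culture, 4 members were higher and 0 lower, or 12.9% beside 5.82% of all genes (8.05% in either direction). Both comparisons use the same control libraries. The median log2 change over the members was -0.06 in senescent co-culture and 0.08 in young co-culture, close to the 0.02 and 0.01 of all genes. In a bulk library, more cells of a type and more RNA per cell cannot be told apart.

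Among the secreted targets, GDF15 had 190.1, 171 and 135 CPM in senescent co-culture and 176, 175 and 166 CPM in young co-culture, against 104, 85.7 and 88.6 CPM in control. Every co-culture library lay above every control library. The log2 change was 0.84 ± 0.15 in senescent co-culture (adjusted p = 0.00477) and 0.90 ± 0.15 in young co-culture (adjusted p = 0.00333), and both calls held when each library was left out in turn.

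Among stress kinases and arrest genes, PLK3, a polo-like kinase that phosphorylates p53, had 82.3, 74.8 and 63.6 CPM in senescent co-culture and 75.1, 69.3 and 65.5 CPM in young co-culture, against 50.6, 34.6 and 43.2 CPM in control. PLK2 had 294, 309.9 and 299.8 CPM in young co-culture, against 139, 169 and 154 CPM in control. BTG2 had 41.4, 37.5 and 39.96 CPM in young co-culture, against 28.2, 27.3 and 29.3 CPM in control. None of these groups overlapped. PLK3 rose by 0.79 ± 0.16 with senescent MSCs (adjusted p = 0.0114) and by 0.72 ± 0.16 with young MSCs (adjusted p = 0.0187). PLK2 rose by 0.98 ± 0.12 (adjusted p = 0.000443) and BTG2 by 0.50 ± 0.13 (adjusted p = 0.0357), both with young MSCs. In senescent co-culture, where PLK2 had 211, 200.2 and 199 CPM and BTG2 41.4, 39.1 and 32.7 CPM, neither passed the threshold in edgeR (adjusted p = 0.0554 and 0.0736) and both did in DESeq2.

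Among the genes that act back on p53, TP53INP1 had 21.6, 24.7 and 21.9 CPM in senescent co-culture and 30.5, 25.97 and 31.3 CPM in young co-culture, against 12.1, 15.6 and 14.99 CPM in control. PPM1D, the phosphatase WIP1 that switches off damage signalling, had 68.5, 65.1 and 55.2 CPM in senescent co-culture and 68.96, 71.4 and 59.8 CPM in young co-culture, against 39.8, 47.2 and 44.2 CPM in control. For both genes all co-culture libraries exceeded all control libraries. TP53INP1 rose by 0.69 ± 0.14 with senescent MSCs (adjusted p = 0.0117) and by 1.05 ± 0.14 with young MSCs (adjusted p = 0.000926). PPM1D rose by 0.54 ± 0.14 (adjusted p = 0.0329) and 0.62 ± 0.14 (adjusted p = 0.0160). MDM2, also of this class, was not called, with log2 changes of -0.17 ± 0.15 and -0.07 ± 0.15 against control libraries at 238, 324 and 305 CPM.

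Among the death genes 1 passed. BBC3, which encodes the BH3-only protein PUMA, had 35.4, 31.7 and 30.98 CPM in young co-culture, against 25.7, 14.9 and 17.8 CPM in control. The groups did not overlap, and the log2 change was 0.75 ± 0.21 (adjusted p = 0.0478). In senescent co-culture BBC3 had 33.2, 34.96 and 22.997 CPM and was not called. BAX, PMAIP1, FAS and the death receptor gene TNFRSF10B were not called in either comparison by edgeR, and TNFRSF10B was called in senescent co-culture by DESeq2. CDKN1A was not called, with log2 changes of 0.17 ± 0.16 and 0.12 ± 0.16 against control libraries at 283, 241 and 271 CPM.

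Some of these calls rested on single libraries. In young co-culture GDF15, PLK2 and TP53INP1 were called with each of the 6 libraries left out. PLK3 was lost without co-culture replicate 2 or 4 or control replicate 4, PPM1D without co-culture replicate 2 or 3 or control replicate 4, and BBC3 and BTG2 with any library left out but control replicate 2, so that 3 to 9 members were called. The 9 were called without control replicate 2, when 12.99% of all genes passed and RRM2B was called lower. It had 119.9, 119.7 and 112 CPM in young co-culture, against 197 and 153 CPM in control replicates 3 and 4. BBC3 was also lost with RLE scaling and BTG2 without the filter on low counts. In senescent co-culture PLK3 and PPM1D were lost without co-culture replicate 2 or 3 or control replicate 4, and TP53INP1 without co-culture replicate 3 or control replicate 4. There 1 to 7 members were called, 7 of them without control replicate 2, when 11.9% of all genes passed and RRM2B was called lower. PPM1D was also lost without the filter.

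**Figure D4:**
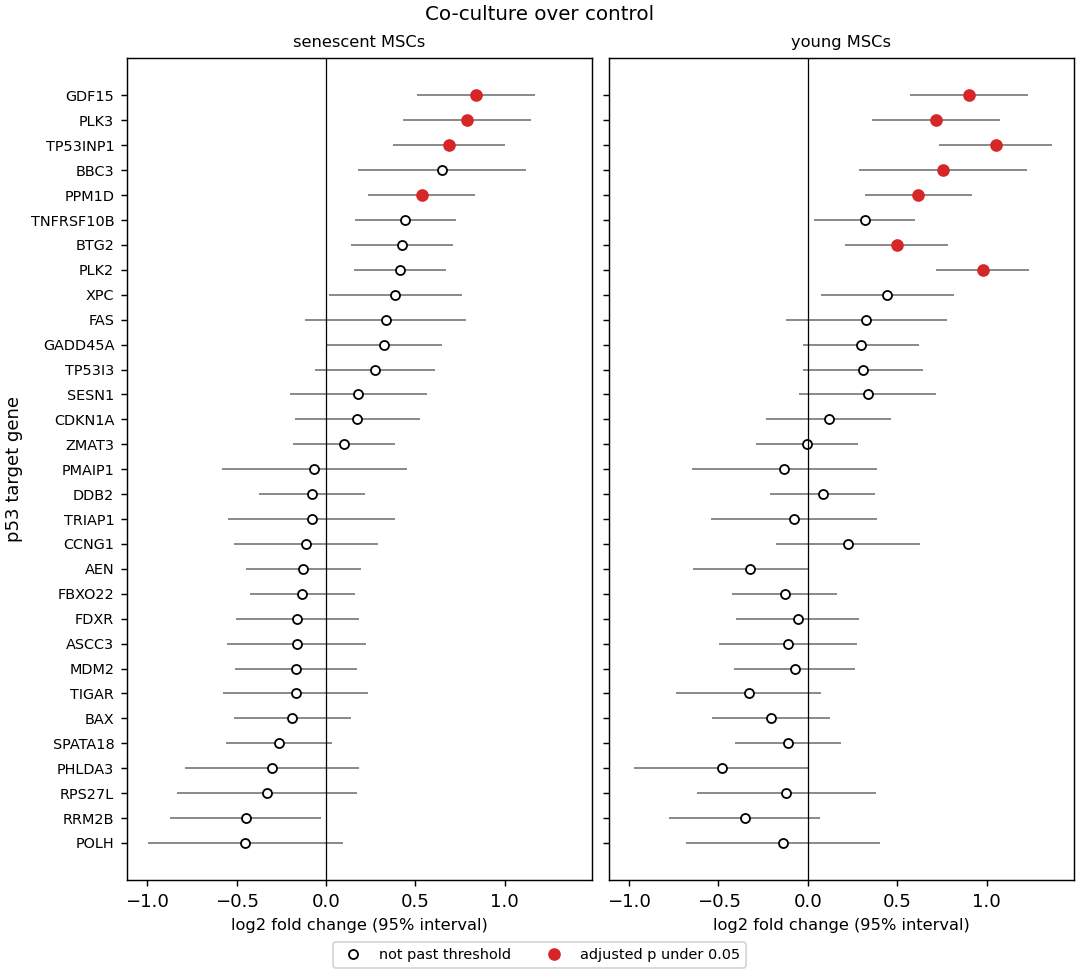
Log2 fold change of each member (rows) in co-culture over control with 95% intervals, with senescent MSCs on the left and young MSCs on the right. Filled points, called at an adjusted p under 0.05, all lie to the right of 0, and CDKN1A, MDM2 and BAX lie near 0.

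MSC transcripts moved with co-culture. The 12 stromal markers summed to 290.9 to 392 CPM in senescent co-culture and 112 to 166 CPM in young co-culture, against 21.3 to 24.0 CPM in control, and 0 of them were at 0 counts in any of these libraries. Of the 12, 12 were called higher in senescent co-culture and 10 in young co-culture. Endothelial markers moved as well: the sum of 10 was 3226 to 3489 CPM in senescent co-culture and 2815 to 3322 CPM in young co-culture, against 1400 to 1948 CPM in control, with at most 1 marker at 0. This sum was also above control on ECM, at 2083 to 3258 CPM with senescent MSCs and 1980 to 3147 CPM with young MSCs. In young co-culture over control, 8 of the 9 markers tested had a positive log2 change and 1, NOS3, a negative one. Control replicate 1, with a stromal sum of 9593 CPM, had 54.1 CPM of GDF15, 15.3 CPM of BTG2, 8.46 CPM of TP53INP1 and 30.8 CPM of PPM1D. These 4 values lie below all 3 other control libraries. In this library 17 of the 31 members, these 4 included, lay below the range of replicates 2 to 4, 5 above and 9 within. Its PLK3, at 36.3 CPM, and BBC3, at 15.5 CPM, lie within the range of the other control libraries, and its PLK2, at 269 CPM, lies above it. The part of MSC RNA in the co-culture results was not tested further.

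Matrix and medium were then set against each other. With senescent MSCs, 5 members were lower on ECM than in CM and 0 were higher. That is 16.1% of the members called lower, beside 2.14% of all genes tested (4.9% in either direction). With young MSCs, 4 members were lower and 1 was higher, or 12.9% lower and 3.23% higher, beside 1.2% and 2.15% of all genes (3.35% in either direction). These 2 comparisons use different libraries. The median log2 change was -0.22 with senescent MSCs, where 25 of 31 members were negative, and -0.30 with young MSCs, where 26 were. The medians of all genes were -0.01 and -0.03.

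GDF15 had 72.6, 89.8 and 68.1 CPM on senescent ECM, against 142, 143 and 137 CPM in senescent CM, and 64.3, 80.1 and 72.6 CPM on young ECM, against 130.1, 115 and 108 CPM in young CM. No library on ECM reached the lowest in CM. It fell by 0.88 ± 0.15 with senescent MSCs (adjusted p = 0.00208) and by 0.73 ± 0.15 with young MSCs (adjusted p = 0.0126).

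BTG2 had 18.8, 21.1 and 20.3 CPM on senescent ECM, against 35.5, 34.6 and 34.2 CPM in senescent CM, and 12.1, 14.3 and 20.5 CPM on young ECM, against 27.5, 27.2 and 33.6 CPM in young CM. PLK3 had 34.2, 36.6 and 30.2 CPM on senescent ECM, against 61.02, 52.9 and 63.5 CPM in senescent CM, and 33.001, 31.2 and 34.3 CPM on young ECM, against 52.1, 45.8 and 48.1 CPM in young CM. Both were lower in every ECM library than in every CM library of the same kind of MSC. BTG2 fell by 0.80 ± 0.17 with senescent MSCs (adjusted p = 0.0106) and by 0.94 ± 0.17 with young MSCs (adjusted p = 0.00605). PLK3 fell by 0.82 ± 0.15 (adjusted p = 0.00458) and 0.59 ± 0.15 (adjusted p = 0.0466).

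BBC3 and TP53INP1 passed with senescent MSCs. BBC3 had 17.1, 16.1 and 12.3 CPM on senescent ECM, against 27.6, 23.6 and 26.2 CPM in senescent CM, and fell by 0.77 ± 0.20 (adjusted p = 0.0312). TP53INP1 had 12.9, 11.004 and 11.3 CPM on senescent ECM, against 17.7, 15.01 and 24.1 CPM in senescent CM, and fell by 0.70 ± 0.19 (adjusted p = 0.0456). With young MSCs the log2 changes were -0.63 ± 0.20 for BBC3 and -0.28 ± 0.19 for TP53INP1, neither of them called.

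SESN1 and GADD45A passed with young MSCs, in opposite directions. SESN1, a sestrin that restrains the growth kinase mTORC1, had 20.6, 25.1 and 20.5 CPM on young ECM, against 29.2, 34.6 and 38.8 CPM in young CM, and fell by 0.66 ± 0.17 (adjusted p = 0.0490). GADD45A, which promotes growth arrest and DNA repair, had 67.7, 65.03 and 54.9 CPM on young ECM, against 39.98, 40.6 and 31.9 CPM in young CM, and rose by 0.71 ± 0.17 (adjusted p = 0.0317). Neither pair of groups overlapped. With senescent MSCs SESN1 changed by -0.60 ± 0.17 and GADD45A by 0.58 ± 0.17, with adjusted p-values of 0.0592 and 0.0668. Senescent ECM and senescent CM libraries of the same replicate number deviated together, and with the number as a block both passed (adjusted p = 0.0182 and 0.00335), making 7 members called.

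The members that moved belong to several roles. CDKN1A had log2 changes of 0.12 ± 0.14 with senescent MSCs and 0.19 ± 0.14 with young MSCs and was not called. MDM2 was not called either, at -0.30 ± 0.17 and -0.48 ± 0.17. The nucleotide excision repair genes XPC and DDB2, the translesion polymerase gene POLH, the ribonucleotide reductase subunit gene RRM2B and the helicase gene ASCC3 were called in neither comparison. With senescent MSCs 2 to 4 members were called when a library was left out. GDF15 and PLK3 were called each time, BTG2 was lost without senescent ECM replicate 2, TP53INP1 with any library left out but senescent CM replicate 3, and BBC3 with any library. TP53INP1 was also lost without TMM scaling. With young MSCs 1 to 8 were called. BTG2 was called each time and GDF15 without young CM replicate 4 or young ECM replicate 3. GADD45A and SESN1 were called without young ECM replicate 3 only, where 8 members and 11.6% of all genes passed, and PLK3 was lost with any library left out. PLK3 and SESN1 were also lost without the filter and without TMM scaling, and PLK3 with RLE scaling.

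**Figure D5:**
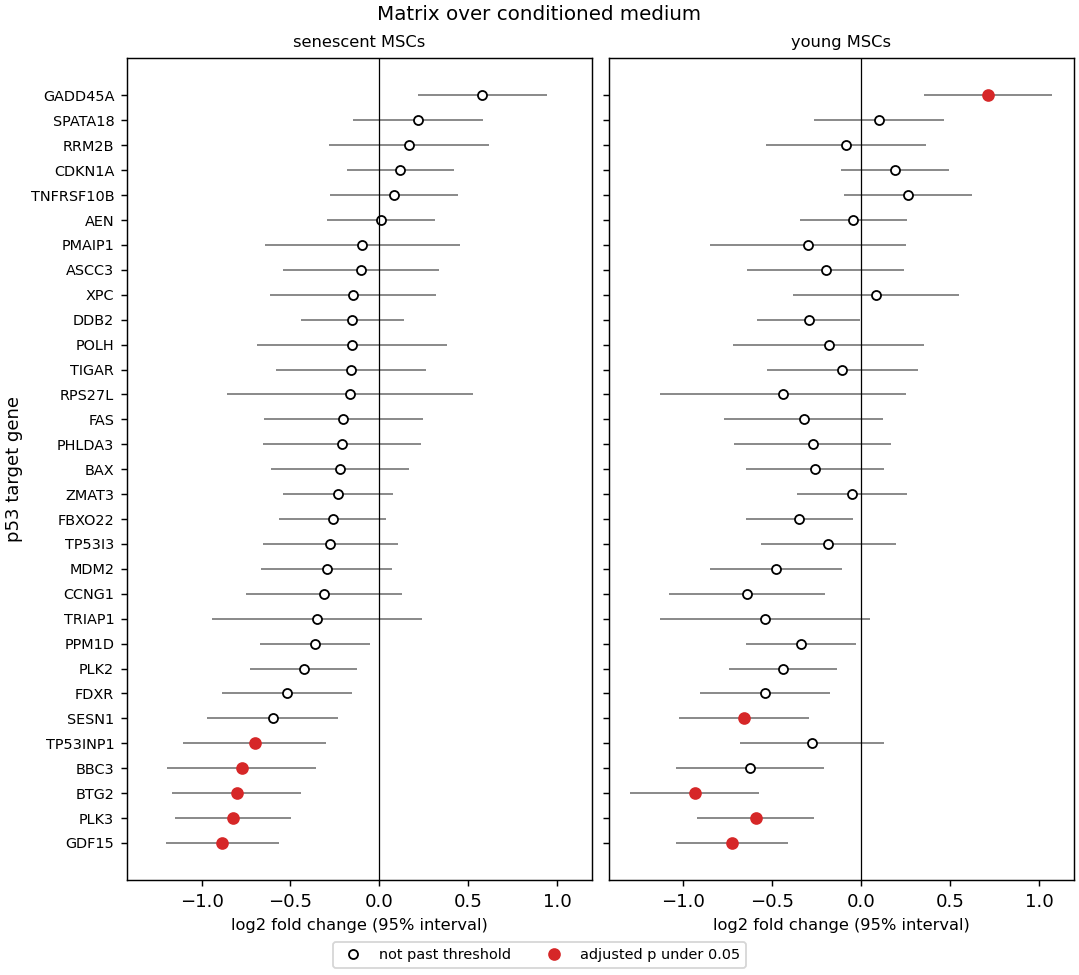
Log2 fold change of each member (rows) on matrix over conditioned medium with 95% intervals, with senescent MSCs on the left and young MSCs on the right. GDF15, PLK3 and BTG2 are filled left of 0 in both panels, and GADD45A is the single filled point right of 0, in the right panel.

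Against control, edgeR called 1 member on matrix, lower there, and none in medium. The ECM and CM comparisons with control share its 3 libraries. BTG2 had 12.1, 14.3 and 20.5 CPM on young ECM, against 28.2, 27.3 and 29.3 CPM in control. All young ECM libraries lay below control, and BTG2 fell by 0.86 ± 0.17 (adjusted p = 0.0297), while 0.189% of all genes were called lower and 0.649% in either direction. This call was lost when any library but young ECM replicate 4 was left out. On senescent ECM, where BTG2 had 18.8, 21.1 and 20.3 CPM, 0 members were called by edgeR, with 0.3% of all genes called, 6 members at an unadjusted p under 0.05 and 0 by DESeq2. Of the 31 members, 27 were below control on senescent ECM and 26 on young ECM, with median log2 changes of -0.20 and -0.17. That leaves 12.9% and 16.1% of the members above control, beside 47.8% and 50.5% of all genes tested. GADD45A went the other way, at 66.2, 55.4 and 47.1 CPM on senescent ECM and 67.7, 65.03 and 54.9 CPM on young ECM, against 45.2, 41.1 and 33.7 CPM in control. No library overlapped, and the log2 changes of 0.49 ± 0.17 and 0.64 ± 0.17 were not called (adjusted p = 0.417 and 0.123). Young ECM and control libraries of the same number deviated together, and with the number as a block GADD45A was called on young ECM (adjusted p = 0.00594), making 2 members.

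In CM, 0 members were called against control by edgeR with either kind of MSC. Of all genes, 0.505% were called in senescent CM and 0% in young CM. At an unadjusted p under 0.05 there were 4 members in senescent CM and 3 in young CM, and DESeq2 called 1 and 0. The 1 was GDF15, at 142, 143 and 137 CPM in senescent CM and 130.1, 115 and 108 CPM in young CM, against 104, 85.7 and 88.6 CPM in control. Every CM library exceeded every control library. The log2 change in senescent CM was 0.61 ± 0.15, with an adjusted p of 0.0970 in edgeR and 0.0117 in DESeq2. CDKN1A and MDM2 were not called, with log2 changes of -0.02 ± 0.14 and -0.09 ± 0.17 in senescent CM and -0.13 ± 0.14 and 0.15 ± 0.17 in young CM.

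The rest of the pathway was read from further lists. CDKN2A, which encodes p16 and the MDM2 inhibitor ARF and is deleted in many carcinoma lines, stood at 0 to 0.0226 CPM in replicates 2 to 4.

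Of 22 other p53 targets, 21 or 22 were tested. In senescent co-culture over control 2 were called (9.09%, beside 5.82% of all genes called higher). In senescent over young co-culture 1 was called (4.55%, beside 0.395% of all genes called in either direction). On ECM over CM, 1 was called higher with senescent MSCs (4.76%). Beside it, 496 of 18015 genes tested were called higher and 4.9% in either direction. With young MSCs 2 were called (9.52%, beside 2.15% of all genes called higher). These shares rest on 1 or 2 genes, and their difference from all genes was not tested. APAF1, the scaffold of the apoptosome, rose by 0.57 ± 0.15 in senescent co-culture over control (adjusted p = 0.0447). LIF, a secreted cytokine of the interleukin 6 family, rose by 1.43 ± 0.21 there (adjusted p = 0.00125) and by 1.50 ± 0.21 over young co-culture (adjusted p = 0.00819). LIF had 2.45, 2.52 and 2.08 CPM in senescent co-culture, against 0.842, 0.847 and 0.814 CPM in young co-culture and 1.09, 0.7 and 0.84 CPM in control. Its level was 7.30 CPM in control replicate 1, which carries the stromal markers. On ECM over CM, KITLG, the ligand of the receptor KIT, rose by 0.87 ± 0.21 with senescent MSCs. TNFRSF10A, a death receptor gene, rose by 0.83 ± 0.20 and LIF by 1.15 ± 0.30 with young MSCs, and no gene of the list was called lower in any comparison.

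The last list holds 14 cell cycle genes that p21 is known to repress through the DREAM complex. On ECM all 14 had a level below control with either kind of MSC, with medians of -0.30 on senescent ECM and -0.37 on young ECM. Of all genes tested, 47.8% and 50.5% were above control in these 2 comparisons, which share the control libraries. These 14 genes move together in the cell cycle, so they are not independent. Of them, 0 and 1 passed the test (7.14% lower on young ECM, beside 0.189% of all genes). CDC20, an activator of the anaphase-promoting complex, had 178, 213 and 190.0 CPM on young ECM, against 314, 280.1 and 322 CPM in control, and fell by 0.66 ± 0.14 (adjusted p = 0.0447). Compared with CM, CDC20 fell by 0.70 ± 0.14 on senescent ECM and by 0.84 ± 0.14 on young ECM (adjusted p = 0.00738 and 0.00328), and CCNB1, the mitotic cyclin B1, fell by 0.56 ± 0.15 on young ECM. These are 1 and 2 of 14 genes called lower (7.14% and 14.3%), beside 2.14% and 1.2% of all genes. In young co-culture over control, BIRC5, which encodes survivin, fell by 0.46 ± 0.13, where 9.68% of all genes were called. The level of CDKN1A was not called different from control in any of these groups.

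Replicate 1 gave a partly different picture of the same members. Within it, GDF15 had 276 CPM in young co-culture (127 CPM without TMM scaling), against 54.1 CPM in control. With TMM scaling, PLK3, BBC3 and PPM1D were also higher in young co-culture there, at 194, 23.5 and 47.1 CPM, against 36.3, 15.5 and 30.8 CPM in control. Without TMM scaling their young co-culture values were 89.0, 10.8 and 21.6 CPM, and the control library had a TMM factor of 1.02. Without that scaling PLK3 stayed above control, but BBC3 and PPM1D lay below it. BTG2, TP53INP1 and PLK2 were lower than control in replicate 1, with 9.81, 1.46 and 96.4 CPM in young co-culture, against 15.3, 8.46 and 269 CPM in control (with TMM). On ECM against CM, BTG2 had 9.05 against 10.7 CPM with senescent MSCs and 11.3 against 11.6 CPM with young MSCs. GDF15 had 55.6 against 66.9 CPM with senescent MSCs and 50.9 against 59.997 CPM with young MSCs, lower on ECM as in replicates 2 to 4 but by less. PLK3 was the other way round, with 40.1 against 37.4 CPM and 39.03 against 34.7 CPM. BBC3, TP53INP1, SESN1 and GADD45A kept the direction of replicates 2 to 4. On ECM against CM with senescent MSCs, BBC3 had 11.8 against 16.8 CPM and TP53INP1 3.76 against 7.31 CPM. With young MSCs, SESN1 had 14.2 against 17.6 CPM and GADD45A 47.8 against 36.0 CPM. With replicate 1 included, 0 members were called in any comparison, and the common coefficient of biological variation was 0.470 instead of 0.189 for the co-culture fit and 0.527 instead of 0.216 for the ECM and CM fit.

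The members' counts can also hold reads of neighbouring genes. In the GENCODE 29 annotation of GRCh38, 13 of the 31 share exon bases with another gene, and the strand setting of the counting is not given in the sources used here. CDKN1A (chr6:36676460-36687339, plus strand) shares 146 exon bases with the antisense gene DINOL. Of the members called, PLK3 (chr1:44800225-44805990, plus strand) shares 78, BBC3 (chr19:47220822-47232766, minus strand) 156 and SESN1 (chr6:108986437-109094819, minus strand) 363. GDF15 (chr19:18374731-18389176, plus strand), BTG2 (chr1:203305491-203309602, plus strand), TP53INP1, PLK2 (chr5:58453982-58460260, minus strand), PPM1D (chr17:60600183-60666280, plus strand) and GADD45A (chr1:67685061-67688338, plus strand) share none.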

How the data were processed

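The data are 27 RNA sequencing libraries in 7 groups. Per the labels' protocols, a directional kit turned poly(A) RNA into libraries. The submitters' processing notes name HISAT2 2.2.1, featureCounts 2.0.1 and the genome GRCh38 (hg38). Which strand setting and annotation the counting used is not given in the sources used here. The values deposited by the authors are raw counts for 60648 gene entries, of which 44 Y copies of pseudoautosomal genes (109832 counts over all libraries) were left out. Symbols were found for 60462 of the 60604 entries used, and GENCODE 29 positions for 58336. Total counts ran from 66320519 to 111512357 per library. Counts of any 2 libraries in a group differed by a chi-square of at least 21.6 per degree of freedom, so none held the same counts as another of its group. The lowest value was between young ECM replicates 2 and 4, whose pairs with replicate 3 gave 437 and 528. Libraries made again from the same RNA or culture cannot be recognised this way. Pairs across groups were not compared.

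Genes were tested with edgeR 4.0.16 (R 4.3.3; quasi-likelihood F-test, 2-sided) after filterByExpr with a minimum count of 10 and TMM scaling, with Benjamini-Hochberg adjustment over all genes tested and a threshold of 0.05. Replicates 2 to 4 of control, ECM and CM shared a fit (15 libraries, 18015 genes), control and co-culture had another (9 libraries, 17729 genes), and all 21 were joined (18492 genes) for differences of the senescence effect that involve co-culture. There were 14 comparisons. Every adjusted p is from edgeR unless another tool is named. Intervals are 95% intervals from the t distribution with the test's degrees of freedom. Levels are CPM scaled by TMM over all 27 libraries. Shares of counts are without TMM. The procedure was tested on simulated data. Alternatives were DESeq2 1.42.0, RLE scaling, library totals without TMM, no filter, all replicates, the replicate number as a block, and leaving out each library.

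Replicate numbers come from the labels, which do not say that same-numbered cultures were grown together. Deviations from the group means correlated over 0.1 for every number between young ECM and control (0.328, 0.463 and 0.219), young CM and control (0.274, 0.304 and 0.259) and senescent ECM and senescent CM (0.185, 0.129 and 0.194), and in no other pair of groups compared. By the labels, every library belongs to the same sequencing run. The members and further lists were chosen with earlier results of these data known, as was the choice to show replicate 1 apart. All members were named; those called in a comparison, and CDKN1A, MDM2, BTG2 and GDF15 throughout, were given per library. Values of PLK2 in co-culture, GADD45A on ECM and the genes of the further lists were singled out after they had been seen. Results of some genes of the further lists are not reported here.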

Additional observations from a re-analysis of the deposited data

Results flagged for a closer look

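The 31 members took 0.246% of the counts of young co-culture replicate 1, against 0.361 to 0.381% in replicates 2 to 4, and 0.228% of the counts of senescent ECM replicate 1, against 0.300 to 0.309% in replicates 2 to 4. Each of these libraries lay far from the other 3 of its group by Dixon's test. Of 6 groups tested, 2 had such a library, and chance gives about 1 in 20. In the other 4 groups replicate 1 was also below the range of replicates 2 to 4, though not past that limit: 0.244% against 0.286 to 0.306% on young ECM, 0.246% against 0.335 to 0.357% in senescent CM, 0.258% against 0.324 to 0.360% in young CM and 0.269% against 0.320 to 0.358% in control.

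Young co-culture replicate 1, which entered no comparison, held 7 members at more than 2-fold the highest level of any library of replicates 2 to 4 on the TMM scale, on which its factor was 0.459. They were RPS27L at 1129 CPM, FDXR, a mitochondrial ferredoxin reductase, at 719 CPM, DDB2 at 612 CPM, TP53I3, a quinone oxidoreductase, at 315 CPM, TRIAP1 at 293 CPM, FBXO22, a ubiquitin ligase subunit, at 230.1 CPM and PLK3 at 194 CPM. The size of this excess turned on the scaling. Without TMM, FDXR was at 2.07 times the highest other library, TP53I3 at 1.83, DDB2 at 1.39, TRIAP1 at 1.06, RPS27L at 1.02, PLK3 at 1.01 and FBXO22 at 0.939 times. In the same library, with TMM, TP53INP1 was at 0.0498-fold, ASCC3 at 0.0803-fold and MDM2 at 0.156-fold of the mean of replicates 2 to 4. Over the 31 members, 12 lay above the range of replicates 2 to 4, 18 below and 1 within it. Across members, the log2 ratio of this library to replicates 2 to 4 had a Spearman rho of -0.40 with exon length (n = 31 genes of 1 library, not independent).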

How the results depend on the processing

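The 22 called changes of members kept their direction under every alternative run; alternatives were not run for single genes of the further lists. All 22 stayed past the threshold under DESeq2 and under the replicate block, 20 under RLE scaling, 19 with library totals, 18 without the filter and 0 with replicate 1 included. With a library left out, 71 of 132 kept the call. Numbers of members called moved as follows. With replicate 1 included they were 0 in young and senescent co-culture over control, 0 on young ECM over control and 0 on ECM over CM with senescent or young MSCs. DESeq2 called 1 in senescent over young co-culture, 7 in senescent co-culture over control, 2 on young ECM over control, 1 in senescent CM over control and 8 on ECM over CM with senescent MSCs. With the replicate block, members called were 2 on young ECM over control, 1 on senescent ECM over control (GADD45A), 1 in senescent CM over control (GDF15), 8 on ECM over CM with young MSCs, 7 there with senescent MSCs and 6 in senescent co-culture over control. The block made 0 calls in young CM over control and moved no other count by over 1.5 times. Without the filter 3 were called on ECM over CM with young MSCs, and 3 with library totals. Leaving out each library in turn gave 3 to 9 members in young co-culture over control, 1 to 7 in senescent co-culture over control, 1 to 8 on ECM over CM with young MSCs, 2 to 4 with senescent MSCs, 0 to 1 on young ECM over control, and 0 to 0 in the other 9 comparisons. Leaving out a library leaves fewer degrees of freedom; otherwise the cause of these moves was not tested. No scaling moved the median of all genes by over 0.1 on the log2 scale. The lowest count of a member was 53. With 3 libraries a group, the median 95% interval reached 0.37 on the log2 scale either side in the ECM comparison of senescent with young MSCs.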
